A study of Mus musculus with 6 samples.

Results

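The immediate early genes of the AP-1 and Egr families were followed in C0321 tumors, and comprised the 10 genes Fos, Fosb, Fosl1, Fosl2, Jun, Junb, Jund, Egr1, Egr2 and Ier2. They were chosen by name, as the rows of the deposited count table that carry these gene symbols, and all 10 were present among the 13730 genes of the table. C0321 is a mouse triple-negative breast cancer (TNBC) line with a mesenchymal, claudin-low profile, a single clone taken from the tumors of mice with a conditional knockout of Lunatic Fringe (Lfng) on the FVB background. The control and the treated tumors both grew from these Lfng-deficient cells, injected with Matrigel into the mammary fat pad of immunocompetent female FVB mice aged 6 to 10 weeks. Control mice (3 tumors) were left without the drug, and SS mice (3 tumors) were given sulindac sulfide (SS), a non-selective cyclooxygenase inhibitor with gamma-secretase modulator activity, by the oral route at 60 mg/kg daily over 14 days once a mass could be felt. The sample labels call the drug a sulfate, and the control is named saline in the series description and vehicle in the paper. The comparison asked whether RNA levels in the tumors differed after SS.

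Immediate early genes are switched on within minutes of growth factor, stress or inflammatory signals, without new protein synthesis, and their RNAs decay quickly. The Fos and Jun proteins pair through leucine zippers to form AP-1, which binds DNA as a dimer: Jun proteins can pair with each other, whereas Fos proteins need a Jun partner. The Egr proteins are zinc finger factors that bind GC-rich sites, and the MAP kinases drive both families through serum response factor with its ternary complex partners and through CREB. In tumors, AP-1 and Egr1 are known for transmitting receptor tyrosine kinase and Ras signals, and their RNAs are also induced by tissue handling and hypoxia.

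The RNA was poly(A)-selected from bulk tumor tissue, so that fewer cells of a type and less RNA per cell cannot be told apart. Library totals ran from 12314424 to 24441553 counts in the control group and from 8468948 to 13696699 in the SS group, so that 3 counts correspond to 0.123 to 0.358 CPM (counts scaled to library size with TMM factors). Vim, a mesenchymal filament, stood between 5875 and 8620 CPM and the simple epithelial keratin Krt8 between 417 and 544 CPM, while Epcam did not exceed 2.98 CPM in any tumor. Among blood cell genes, 4 of the 5 erythrocyte markers were lower in SS tumors at an unadjusted p under 0.05 (3.16% of all genes tested were), and the summed level of the 5 ranged from 1890 to 3927 CPM in control and from 853 to 1934 CPM in SS tumors. Of these 4, Hbb-bt kept an unadjusted p under 0.05 without each tumor in turn, and the others did not (Hba-a1 had a log2 fold change of -1.13, and of -0.49 without control tumor 1). The dendritic cell list, of which 2 genes were tested, had 1 higher at that level, Itgax (3.19% of all genes tested were). Zbtb46 was at -0.23 on the log2 scale (-0.47 to 0.32 with 1 tumor left out), and Xcr1 stood below 1 CPM in every tumor. Itgax (CD11c) ranged from 49.4 to 66.9 CPM in control and from 89.6 to 173 CPM in SS tumors, and of 6 epithelial genes 1 was lower at that level, Krt18, which ranged from 80.4 to 98.1 CPM and from 59.5 to 70.0 CPM, respectively. By DESeq2, Itgax and Hbb-bt were among the 35 genes at an adjusted p under 0.05 (0.00028 and 0.025), and Krt18 was not (0.085). Of the other epithelial genes, none of which reached that level by edgeR, Krt8 had a log2 fold change of -0.096 (-0.19 to 0.0011 with 1 tumor left out). Cdh1 was at 0.41 (0.083 to 0.93), Epcam at 2.2 (1.34 to 4.35), Krt14 at -0.083 (-0.61 to 1.02) and Krt5 at -0.30 (-0.93 to 3.96). The part of these cell markers in the results below was not tested.

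Promoter sequences are shown for 4 members: Egr2 and Junb, whose SS tumors all lay below the control tumors, and Fos and Jun, after which the AP-1 families are named. The SS tumors also all lay below the control tumors for Egr1, for which no window was available. The sequences are from RefSeq on GRCm38.p6. Each window is the 250 bases 5' of the RefSeq start on the gene's own strand, at chr10:67537619-67537868 (plus strand) for Egr2, chr8:84978749-84978998 (minus) for Junb, chr12:85473640-85473889 (plus) for Fos and chr4:95052223-95052472 (minus) for Jun. Capitals mark the motifs found.
Egr2: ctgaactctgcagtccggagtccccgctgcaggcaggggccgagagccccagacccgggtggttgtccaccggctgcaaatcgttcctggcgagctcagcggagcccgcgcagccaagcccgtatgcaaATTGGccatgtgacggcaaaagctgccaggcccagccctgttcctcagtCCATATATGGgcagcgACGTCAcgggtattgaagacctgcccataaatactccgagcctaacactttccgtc
Junb: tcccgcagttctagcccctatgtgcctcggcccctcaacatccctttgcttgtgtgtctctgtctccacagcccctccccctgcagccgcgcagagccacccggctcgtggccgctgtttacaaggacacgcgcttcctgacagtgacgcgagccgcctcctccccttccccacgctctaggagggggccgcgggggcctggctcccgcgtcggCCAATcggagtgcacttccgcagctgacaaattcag
Fos: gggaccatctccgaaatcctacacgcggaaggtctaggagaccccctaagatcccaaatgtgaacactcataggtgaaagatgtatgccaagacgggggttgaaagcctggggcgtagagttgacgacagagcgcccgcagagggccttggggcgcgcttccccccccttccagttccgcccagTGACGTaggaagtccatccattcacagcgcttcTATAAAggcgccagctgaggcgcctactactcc
Jun: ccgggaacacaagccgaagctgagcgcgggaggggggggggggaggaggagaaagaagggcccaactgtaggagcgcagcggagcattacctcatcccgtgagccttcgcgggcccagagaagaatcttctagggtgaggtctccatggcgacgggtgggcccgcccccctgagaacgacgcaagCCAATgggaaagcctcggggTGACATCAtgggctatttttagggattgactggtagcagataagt

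Each motif was searched on both strands of the windows of 7 members (Fos, Fosb, Fosl2, Jun, Junb, Jund and Egr2), and its share among 32851 windows of the same length is given. The Egr2 window held a CArG box, the serum response factor motif, at bases 72 to 63 before the start, which 1.47% of all windows held. The CRE core TGACGT lay at bases 56 to 51 in Egr2, on the opposite strand, and at bases 66 to 61 in Fos, against 6.47% of all windows. The Jun window held the 8-base AP-1 and CRE form TGACNTCA at bases 45 to 38, against 7.49%, and this motif overlaps TGACGT where its N is G. The 7-base AP-1 form TGANTCA was found in 0 of the 7 windows, against 6.75% of all. CCAAT was present in Jun, Junb and Egr2 (33.8% of all windows) and TATAAA in Fos (12.4%). The Egr site GCGNGGGCG, present in 4.70% of all windows, lay in the Fosb window at chr7:19310046-19310295 (minus strand) and in the Fosl2 window at chr5:32136222-32136471 (plus strand), at bases 50 to 42 and 79 to 71 before the start. These matches describe letters in the windows and were not measured as binding sites.

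Among the 10 members, the levels of Egr1, Egr2 and Junb were lower in every SS tumor than in every control tumor, Jund was slightly higher in every SS tumor, and Fos, Fosb, Fosl2 and Jun overlapped between the groups. Egr1 differed most, with a level that edgeR estimated as 3.26-fold lower in SS tumors. None of the differences passed adjustment over the whole table. The filter on low counts kept 8 members, and Fosl1 and Ier2 were too low to be tested. By edgeR's quasi-likelihood test, 3 of the 8 had an unadjusted p under 0.05, all lower in SS tumors, where the background was 6.36% of the 10902 genes tested in either direction and 3.16% in the lower direction. At an adjusted p under 0.05 there were 0 members and 0 genes (0%), with a smallest adjusted p of 0.616 over all genes, and DESeq2's Wald test called 0 members and 35 genes (0.58% of the 6039 to which it gave an adjusted p). The groups did not overlap for 4 of the 8 members, 3 lower and 1 higher, where 12.9% of all genes did not overlap, 6.4% lower and 6.51% higher. The log2 fold change was below 0 for 7 of the 8, against 50.2% of all genes, and its median was -0.44 against -0.0013 over all genes tested. Without control tumor 3 this median was -0.27. With 3 tumors per group the smallest p that an exact permutation test of 1 gene can reach is 0.1.

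**Figure D1:**
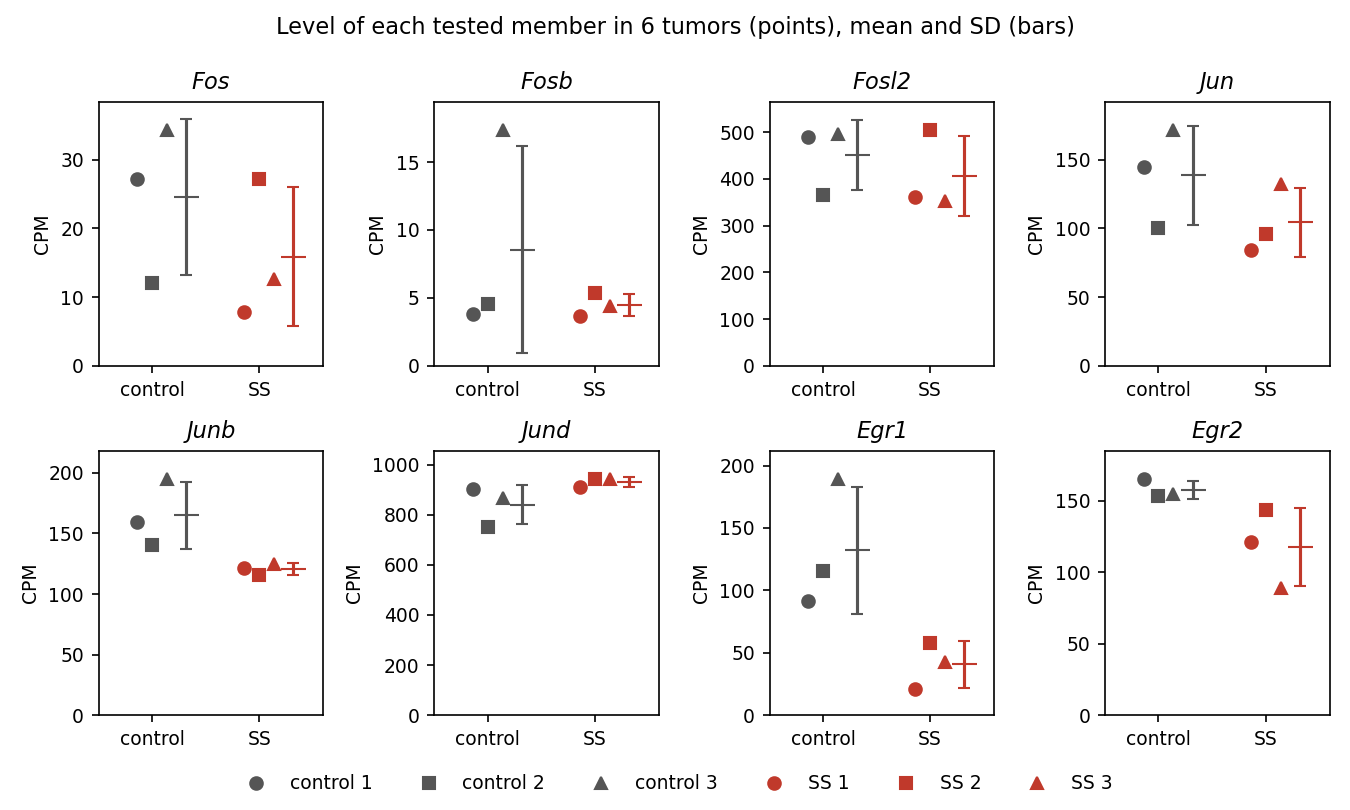
Level in CPM (y axis, linear from 0) of the 8 tested members in the 3 control and 3 SS tumors (points, 1 shape per tumor number), with the mean and SD of each group beside them. Egr1, Egr2 and Junb show every SS tumor below every control tumor, Jund every SS tumor above (though not under 3 other scalings), and the other 4 overlap.

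Egr1 lies on chromosome 18 from 34861207 to 34864957 (mm10, plus strand, coordinates of the deposited table) and encodes a zinc finger factor induced by ERK signaling, whose activity the Nab corepressors restrain. Its level was 91.5, 116 and 189 CPM in control tumors 1, 2 and 3 and 21.1, 58.2 and 42.9 CPM in SS tumors 1, 2 and 3. The highest SS tumor thus stayed below the lowest control tumor, with a wide spread inside both groups. Control tumors averaged 132 ± 50.8 CPM (SD, n = 3), and SS tumors averaged 40.7 ± 18.6 CPM (SD, n = 3). EdgeR estimated a log2 fold change of -1.70 (standard error 0.39), with an unadjusted p of 0.0027 and an adjusted p of 0.679. DESeq2's Wald test gave Egr1 an adjusted p of 0.079, the lowest among the 16 settings tried, over which the adjusted p reached 0.969. Of the 1897 tested genes whose mean level was at least that of Egr1 (86.4 CPM), 0 had a more negative log2 fold change, and 55 of all 10902 did.

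Egr2 (chromosome 10 from 67537869 to 67542189, plus strand) encodes a relative of Egr1 known from myelinating Schwann cells, T cells and macrophages. Its level was 165, 153 and 155 CPM in control tumors and 121, 143 and 89.1 CPM in SS tumors. The control tumors lay close together and all 3 SS tumors lay below them, SS tumor 2 by the least. EdgeR gave -0.42 on the log2 scale (standard error 0.17), with an unadjusted p of 0.037 and an adjusted p of 0.771. The unadjusted p was above 0.05 without each of the tumors except SS tumor 2, at 0.065 to 0.085, and was 0.0079 without SS tumor 2. Without SS tumor 3 the log2 fold change was -0.26. The table held 2 transcripts of Egr2, and nearly all its counts were assigned to the transcript that starts at 67537869, 1054 to 3766 per tumor against 0.00178 to 16.1 for the other.

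Junb (chromosome 8 from 84976909 to 84978749, minus strand) encodes a Jun protein that can antagonize Jun at some promoters. Its level was 159, 141 and 195 CPM in control tumors and 121, 116 and 125 CPM in SS tumors. The SS tumors differed little from each other, and all 3 lay below the lowest control tumor. The difference by edgeR was -0.45 on the log2 scale (standard error 0.13), with an unadjusted p of 0.010 and an adjusted p of 0.771. Its unadjusted p, like that of Egr1, was under 0.05 in all 16 settings, and without control tumor 3 the log2 fold change was -0.31.

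Jun (chromosome 4 from 95049036 to 95052223, minus strand), the founding Jun protein and a substrate of JNK, was at 144, 100.2 and 172 CPM in control tumors and at 84.6, 96.1 and 132 CPM in SS tumors. SS tumor 3 lay above control tumor 2, so that the groups overlapped. EdgeR estimated -0.41 on the log2 scale (standard error 0.23, unadjusted p 0.115, adjusted p 0.813). Leaving out 1 tumor moved this value from -0.23 without control tumor 3 (unadjusted p 0.37) to -0.60 without control tumor 2 (0.024) and -0.62 without SS tumor 3 (0.036). Jund (chromosome 8 from 70697739 to 70700617, plus strand), the Jun protein with the steadiest expression in most tissues, was at 901, 751 and 865 CPM in control tumors and at 909, 942 and 942 CPM in SS tumors. Every SS tumor lay above every control tumor, by a small margin over control tumor 1, and the groups overlapped under upper-quartile scaling, library totals alone and quantile normalization. EdgeR estimated 0.15 on the log2 scale (standard error 0.10, adjusted p 0.854), and 0.076 without control tumor 2. Jund appeared in the table as 2 entries with identical coordinates and equal values in all 6 tumors, which were summed.

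Fos (chromosome 12 from 85473901 to 85477271, plus strand), the most transiently induced AP-1 subunit, was at 27.2, 12.1 and 34.3 CPM in control tumors and at 7.84, 27.2 and 12.6 CPM in SS tumors. Control tumor 2 lay with the low SS tumors and SS tumor 2 with the high control tumors. Its log2 fold change by edgeR was -0.64 (standard error 0.51, adjusted p 0.878). Without SS tumor 2 it was -1.27 (unadjusted p 0.033), and without control tumor 3 or SS tumor 1 it was -0.31. Fosb (chromosome 7 from 19302696 to 19310046, minus strand), a close relative of Fos known for its long-lived truncated form in the brain, was at 3.79, 4.52 and 17.4 CPM in control tumors and at 3.70, 5.37 and 4.39 CPM in SS tumors. Control tumor 3 alone stood apart, and the other 5 tumors lay within 3.70 to 5.37 CPM. The log2 fold change of -0.95 (standard error 0.58, adjusted p by edgeR 0.837) became 0.10 without that tumor, and -1.29 without control tumor 1 (unadjusted p 0.044).

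Fosl2 (chromosome 5 from 32136472 to 32157840, plus strand) encodes Fra-2, a Fos protein without a strong activation domain that is expressed in unstimulated cells. Its level was 491, 365 and 497 CPM in control tumors and 362, 505 and 354 CPM in SS tumors. Both groups held high and low tumors, and edgeR estimated -0.15 on the log2 scale (standard error 0.18, adjusted p 0.921), which leaving out 1 tumor moved over a range from -0.33 without SS tumor 2 and -0.28 without control tumor 2 to -0.084, -0.070, -0.072 and -0.059 without control tumors 1 and 3 and SS tumors 1 and 3. Fosl1 (chromosome 19 from 5447698 to 5455939, plus strand) encodes Fra-1, and had 0, 4 and 4 counts in control and 3, 1 and 1 counts in SS tumors. Ier2 (chromosome 8 from 84661331 to 84662853, minus strand), a nuclear protein gene commonly induced with Fos, had 3, 8 and 10 counts in control and 10, 3 and 5 counts in SS tumors. Both stood below 1 CPM in every tumor, where a difference was not detectable at this depth.

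**Figure D2:**
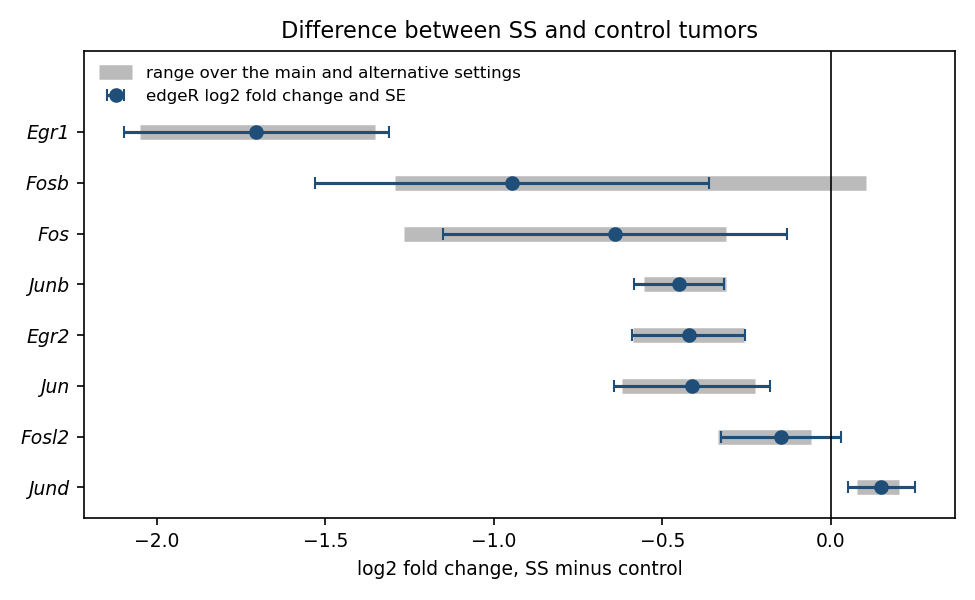
Log2 fold change of SS against control tumors (x axis) for each tested member, as edgeR's estimate with its standard error (points and bars), over the lowest to highest value among 16 settings (grey band). Egr1 stayed between -2.05 and -1.35, and of the 8 members only Fosb had a band that crossed 0.

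Per kilobase of transcript, Jund was the most abundant member in control tumors, at 503 ± 46.8 CPM per kilobase (SD, n = 3), followed by Junb at 91.2 ± 15.2 and Fosl2 at 69.0 ± 11.4. Egr2 stood at 53.2 ± 2.2, Jun at 43.5 ± 11.3 and Egr1 at 43.5 ± 16.7 CPM per kilobase, and the ranges of Egr2 and Jun and those of Jun and Egr1 overlapped. Below them came Fos at 11.6 ± 5.38 and Fosb at 2.26 ± 2.02 CPM per kilobase, and Ier2 and Fosl1 lay at 0.228 and 0.0645. The other neighbors in this order did not overlap among the control tumors. The matched Jund transcript was 1.668 kilobases long, whereas its deposited entries spanned 2.878 kilobases, and at the latter length Jund was still the highest member at 292 CPM per kilobase. In SS tumors Egr1 stood at 13.4 ± 6.14 CPM per kilobase (SD, n = 3), beside 39.7 ± 9.20 for Egr2 and 32.7 ± 7.81 for Jun.

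As shares of the summed Jun family level per kilobase, Jund made up 80.2, 80.5 and 76.3% in control tumors and 85.3, 85.7 and 83.6% in SS tumors, with no overlap. Junb made up 13.1, 13.9 and 15.8% in control and 10.5, 9.70 and 10.2% in SS tumors, also with no overlap. Jun made up 6.72, 5.62 and 7.91% and 4.16, 4.57 and 6.14%, and the groups overlapped. The mean shift was 5.91 percentage points up for Jund, with -4.12 for Junb and -1.79 for Jun (-3.02 without length correction). In the Fos family, Fosl2 made up 84.4, 88.8 and 78.4% in control and 92.0, 84.3 and 88.3% in SS tumors, and Fos 14.5, 9.13 and 16.8% and 6.19, 14.1 and 9.74%. Both overlapped between the groups, as did Fosb, at 1.13 to 4.73% in control and 1.55 to 1.89% in SS tumors. The shares are descriptions and carry no test.

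**Figure D3:**
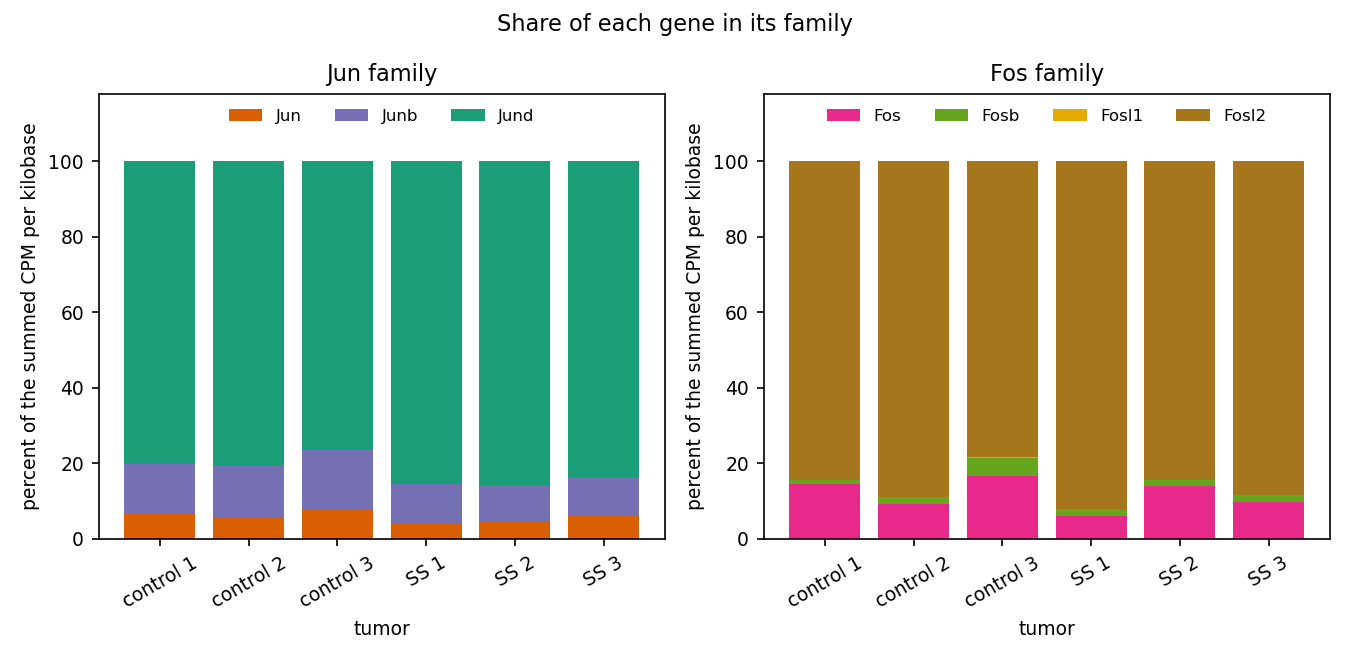
Share of each gene in the summed level of its family (y axis, percent of CPM per kilobase) in each of the 6 tumors (x axis), for the Jun family and the Fos family. Jund holds 76.3 to 80.5% in control and 83.6 to 85.7% in SS tumors, and Fosl2 holds most of the Fos family in all 6.

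The members did not order the tumors alike. Control tumor 3, which was also the deepest library, had the highest level of all 6 tumors for 5 of the 8 tested members and the highest among controls for Fos, Fosb, Fosl2, Jun, Junb and Egr1. Control tumor 2 was the lowest control for 6 members, though not for Egr1 or Fosb. SS tumor 1 was the lowest of all 6 for 4 members, and SS tumor 2, the shallowest library, was the highest SS tumor for 6. The stress-inducible chaperone gene Hspa1a was at 3726, 1480.4 and 3809 CPM in control and at 1309, 2064 and 2646 CPM in SS tumors. Controls 1 and 3 were thus high and control 2 and SS 1 low for Hspa1a, as for Fos, but SS tumor 2 was above its mean for Fos (0.62 on the log2 scale) and below it for Hspa1a (-0.16), and SS tumor 3 the reverse (-0.48 and 0.20). The near-identical Hspa1b was close to its mean in SS tumor 2 (0.053) and above it in SS tumor 3 (0.15). The summed skeletal muscle markers were at 4947, 9277 and 874 CPM in control and at 282, 17816 and 9311 CPM in SS tumors, lowest in SS tumor 1 and control tumor 3, which were the lowest and the highest for Egr1. The part of handling, depth or muscle tissue in the differences was not tested.

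**Figure D4:**
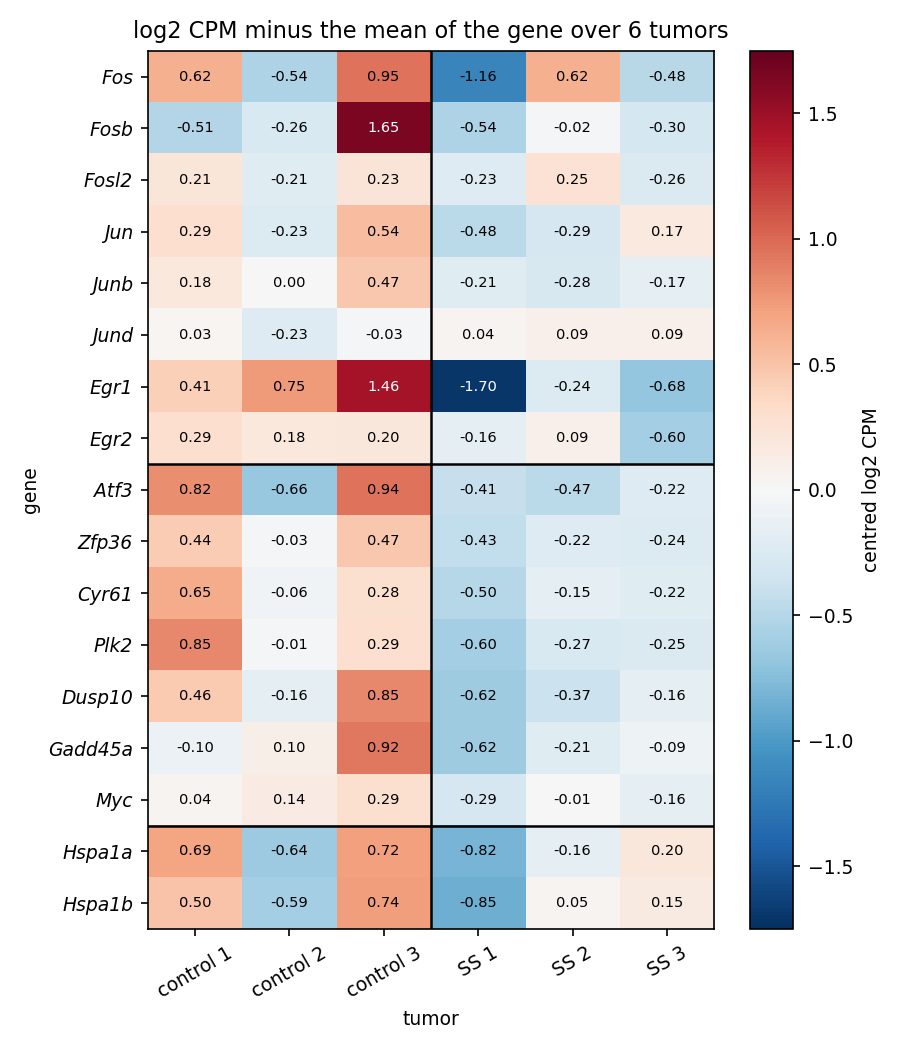
Log2 CPM of each gene minus its own mean over the 6 tumors (color and printed value, red above and blue below the mean) for the 8 tested members (top), 7 of the 12 related genes with an unadjusted p under 0.05 by edgeR (middle) and Hspa1a and Hspa1b (bottom). The 7 were all lower in SS tumors. Not shown are Spry2, Map3k1, Hspb1, Hsp90aa1 and Mkl2, of which Mkl2 was higher. Egr1 runs from 1.46 in control tumor 3 to -1.70 in SS tumor 1, and Fos is above its mean in SS tumor 2 as in control tumors 1 and 3.

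The tested genes with the most similar pattern, by the root mean square difference of centered log2 CPM over 6 tumors, were named for Fos, Jun and Egr1. For Fos they were Rtl8a (0.15), Reck (0.24) and Wnt2b (0.24), against a spread of 0.77 for Fos itself around its mean. Slc2a1, the glucose transporter GLUT1, was closest to Jun at 0.084, with 322, 232 and 399 CPM in control and 194, 245 and 277 CPM in SS tumors, and Gm5434 (0.085) and Zfp770 (0.099) followed, against 0.36 for Jun itself. For Egr1 the closest were Manea (0.42), Klf11 (0.43) and Mfap4 (0.44), which is less close relative to the spread of Egr1, 1.02. Some of these genes stood low: Rtl8a at 0.581 to 2.59 CPM, Wnt2b at 0.943 to 4.23 CPM, and Manea at 0.218 CPM (3 counts) in SS tumor 1. All were picked as the nearest among the tested genes outside the members, and the likeness was not tested.

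Of the other immediate early genes, 34 were tested and 5 passed an unadjusted p of 0.05 by edgeR, each of them lower after SS (background 3.16%), with a median log2 fold change of -0.19. They were Plk2, a polo-like kinase induced by p53 and serum (-0.79), Gadd45a, a stress sensor (-0.67), Zfp36, which destabilizes AU-rich mRNAs (-0.61), Cyr61, a matricellular YAP and serum response target (-0.60), and Myc (-0.31). Cyr61 was at 851, 520.5 and 657 CPM in control and at 383, 487 and 465 CPM in SS tumors, and Plk2 at 195, 108 and 133 CPM and 71.8, 90.0 and 91.2 CPM. For both, as for Zfp36 and Myc, every SS tumor lay below every control tumor, whereas Gadd45a overlapped. Egr3, another Egr gene, was at 20.9, 18.3 and 10.4 CPM in control and at 8.35, 10.6 and 12.3 CPM in SS tumors, which overlapped (log2 fold change -0.67). The log2 fold changes of Klf6 (-0.32), Ptgs2 (-0.54), Ier3 (-0.30), Nr4a1 (-0.27), Klf4 (0.080), Ier5 (0.13), Btg2 (0.21) and Ctgf (0.43) had larger p-values. The list as a whole was lower for 23 genes and higher for 11.

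Among 11 tested partners of AP-1 outside the Fos and Jun families, 1 was lower at an unadjusted p under 0.05 (background 3.16%), and the median log2 fold change was -0.000975. This was Atf3, a stress-induced Jun partner, at 93.7, 33.5 and 102 CPM in control and 40.0, 38.2 and 45.5 CPM in SS tumors (log2 fold change -0.89). Control tumor 2 lay below the SS tumors for Atf3, as it lay low for Fos and Hspa1a. The unadjusted p of Atf3 was 0.043, was above 0.05 with limma-voom sample weights, quantile normalization or the replicate block, and was 0.076 to 0.15 without each tumor except control tumor 2. Batf (-0.16), Jdp2 (0.011), Maff (0.035) and Batf3 (1.05) did not pass, and Batf3 ran from 0.26 without SS tumor 1 to 1.91 without control tumor 1, where its unadjusted p was under 0.05. Among 16 feedback inhibitors, which switch off MAP kinase or Egr signals, 3 had an unadjusted p under 0.05, all lower (background 3.16%). They were the JNK and p38 phosphatase Dusp10 (-0.82), Zfp36, already counted among the immediate early genes, and Spry2, an inhibitor of receptor tyrosine kinase signaling (-0.49). Dusp1 (-0.058), Dusp6 (0.027) and the Egr corepressor Nab2 (0.18) did not pass, and the list median was -0.016.

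Upstream, 1 of 21 kinase pathway genes was lower at an unadjusted p under 0.05 (background 3.16%), and the list median was -0.039. This was the JNK pathway kinase Map3k1 (-0.46, every SS tumor below every control). Of 14 activators that bind immediate early promoters, 1 had an unadjusted p under 0.05 in the higher direction (background 3.19%), the serum response factor coactivator Mkl2 (0.50, 7.96 to 8.38 CPM in control and 10.7 to 11.9 CPM in SS tumors). Srf (-0.26), Elk1 (0.15), Elk3 (-0.0775) and Creb1 (-0.0285) did not pass. Downstream, 0 of 17 AP-1 target genes and 0 of 12 Egr target genes reached that level by edgeR (background 6.36% in either direction), with medians of -0.046 and -0.016. Mmp3, a stromelysin, was at 6.24, 1.82 and 5.75 CPM in control and 2.69, 14.9 and 18.7 CPM in SS tumors, and Mmp13 (0.42), Timp1 (0.90), Ccnd1 (0.13), Plaur (-0.30) and Tgfb1 (-0.024) did not pass either. Of 14 heat shock and handling genes, 2 were lower at an unadjusted p under 0.05 (background 3.16%), Hspb1 (-1.52) and Hsp90aa1 (-0.30). The median was -0.25, with 12 genes lower and 2 higher. Hspa1a (-0.58, and -0.91 to -0.35 with 1 tumor left out), Hspa1b (-0.47, and -0.77 to -0.20) and Dnajb1 (-0.052) did not pass. Of the 29 named genes of these lists with an unadjusted p of 0.05 or more, 28 changed sign or moved by over 1.5 times on the log2 scale without 1 of the tumors (the exception was Egr3, from -0.91 to -0.46), so their values are given as a description. In all these lists, 0 genes had an adjusted p under 0.05 by edgeR. Of the 12 genes of these lists at an unadjusted p under 0.05, Plk2 kept it in all 15 alternatives and Cyr61 in all but quantile normalization, whereas the other 10 lost it without control tumor 3. Without control tumors 1 and 2 this held for 3 and 5 of the 12, and without SS tumors 1, 2 and 3 for 8, 5 and 5. Single tumors also moved some values by over 1.5 times, as Gadd45a was at -0.29 and Map3k1 at -0.30 without control tumor 3, Plk2 at -0.51 without control tumor 1, and Spry2 at -0.31 without SS tumor 1 and -0.75 without SS tumor 2.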

How the data were processed

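RNA from 6 bulk tumors, taken here as 1 per mouse, was sequenced by the authors as stranded poly(A) libraries. The authors deposited estimated counts for 20648 RefSeq transcripts without normalization, and every entry had at least 10 counts over the 6 tumors. Their processing notes name mm10, CASAVA 1.8.1, Bowtie2 2.2.5 and STAR 2.5.3a, and the counting tool is not given in the sources used here. Such counts divide reads among isoforms and near-identical copies by estimate.

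Transcripts were summed by symbol and rounded (21 symbols stored as dates were restored). The 10902 genes that passed filterByExpr were compared between 3 control and 3 SS tumors by the quasi-likelihood test of edgeR 4.0.16 (R 4.3.3, TMM factors), and p-values were adjusted over all of them by the Benjamini-Hochberg procedure. Standard errors were derived from the F statistic (log2 fold change over its root), and log2 CPM used a prior count of 2. Scripts were tested on simulated data. Floors of 3 counts cover counting error only. Transcript lengths came from the exons of GENCODE vM21 transcripts paired with the RefSeq accessions. Promoter windows came from RefSeq on GRCm38.p6. Alternatives were RLE, upper-quartile, no scaling, no or a stricter filter (1 CPM), DESeq2 1.42.0, limma 3.58.1 after voom with sample weights or after quantile normalization (the study's scaling), a replicate block, the removal of each tumor in turn and, added after seeing the data, another length for Jund.

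The members and the gene lists were chosen with earlier results of these data known. Named were all members, a list of genes by name, any listed pathway gene with an unadjusted p under 0.05, and the 3 genes nearest in pattern to Fos, Jun and Egr1. T cell markers Cd3d, Cd3g, Trac and Cd8a were not analysed here, and 1 gene of the list by name is not reported here.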

Additional observations from a re-analysis of the deposited data

How the results depend on the processing

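Egr1, Junb, Egr2, Jun, Fos, Fosl2 and Jund kept their direction in all 15 alternatives, and 0 members had an adjusted p under 0.05 in any of them. Among all genes, DESeq2 gave 35 genes at an adjusted p under 0.05 where the other alternatives gave 0. Leaving out 1 tumor at a time gave 2 to 4 members and 520 to 877 genes at an unadjusted p under 0.05, 4 to 6 members without overlap (where 21.1 to 25.5% of all genes then did not overlap), and a member median log2 fold change of -0.58 to -0.27. Quantile normalization gave 2 members at that level and lost Egr2, and with it, upper-quartile scaling or library totals alone, 3 members did not overlap, since Jund then overlapped. With 1 tumor left out, the share shifts ranged from -5.64 to -1.56 percentage points for Fos, -2.39 to -1.21 for Jun, -4.71 to -3.34 for Junb and 4.55 to 6.67 for Jund. Without length correction the shifts were -3.02 for Jun, -1.36 for Fos, -3.96 for Junb and 6.99 for Jund, and with Jund at the span of its deposited entries the shifts were -5.57 for Junb and 7.96 for Jund, as fixed by the lengths used.

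The 64 genes followed here were the tested members, the list by name, listed genes and markers at an unadjusted p under 0.05 by edgeR, and the genes nearest in pattern. Over these and 956 gene and alternative pairs, 25 values in 14 genes changed sign, 21 of them when 1 tumor was left out, and the cause was not tested. The ranges with 1 tumor left out were -1.29 to 0.10 for Fosb, -0.31 to 0.047 for Batf, -0.11 to 0.080 for Creb1, -0.18 to 0.10 for Dnajb1, -0.26 to 0.14 for Dusp1, -0.15 to 0.21 for Dusp6, -0.020 to 0.41 for Elk1, -0.22 to 0.0048 for Elk3, -0.66 to 0.041 for Ier3, -0.29 to 0.22 for Jdp2, -0.16 to 0.23 for Klf4, -0.15 to 0.33 for Maff, -0.97 to 0.27 for Ptgs2 and -0.048 to 0.00015 for Tgfb1. Jdp2 was at -0.0021 with library totals alone and -0.00014 with no filter, and with sample weights Dusp1 was at 0.028 and Dnajb1 at 0.010. Cell markers that did not reach that p were not counted, and some of them also changed sign with 1 tumor left out, as Zbtb46 (-0.47 to 0.32) and Krt8 (-0.19 to 0.0011) did.

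Replicate numbers are shared by tumors of different mice. After the group means were subtracted, same-numbered tumors correlated at 0.12, 0.021 and 0.077. Control tumors 1 and 3 were closest to the SS tumors of the same number, and control tumor 2 to SS tumor 3 (0.17). The labels do not say whether the numbers pair the tumors, and so few correlations cannot decide it. With the replicate number as a block, 4 members (Egr1, Egr2, Junb and Jun) and 643 genes had an unadjusted p under 0.05, 479 of the genes shared with the fit without it, and 0 genes passed adjustment. Depth limits Fosl1 and Ier2, which had 10 or fewer counts in every tumor.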
